A study of Mus musculus with 24 samples.

Results

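Hippocampus and cerebral cortex of 4 wildtype (WT) mice were compared on 8 of the 24 arrays of the series. There was 1 array per region and animal, and equal animal numbers in the labels were taken to mean the same mouse. The animal number entered the main fit as a random block, but its estimated correlation was 0.00646, so the test in effect compares group means. Only the alternative with the animal as a fixed block holds strictly to the pairs. Every row of the deposited table that carries a gene entered the comparison: 19572 of 22206 rows, for 19505 gene symbols. The other 16 arrays hold cerebellum of WT mice with the same numbers and all 3 regions of 4 mice with a knockout (KO) of glutamine synthetase that is limited to the liver. The WT animals of the comparison carry no knockout per the labels, and all arrays were made from total RNA of tissue pieces. The labels do not state the strain, age or sex of the animals or how the regions were dissected, and the arrays are taken to come from separate animals as their numbers imply.

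The hippocampus is a folded sheet of cortex in which excitatory neurons lie in a few packed fields: granule cells in the dentate gyrus, and pyramidal cells in the fields CA3, CA2 and CA1, linked in a chain from dentate gyrus to CA1. The neocortex is built of stacked layers, with neurons that project within the cortex mostly in the upper layers and neurons that project to the thalamus, brainstem and spinal cord in the deep layers. Both regions share inhibitory interneurons, astrocytes, myelinating cells, microglia and vessels, so a difference between them can come from a gene used in 1 kind of neuron or from a different mixture of cells. In bulk tissue such as this, more cells of a type and more RNA per cell cannot be told apart.

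Between these regions 1387 rows (7.09% of those tested) had an adjusted p under 0.05 and are said to have passed, by limma's test with Benjamini-Hochberg adjustment; 797 of them (4.07%) were higher and 590 (3.01%) lower in the hippocampus. A further limit of a 2-fold difference left 267 rows (1.36%), 146 of them higher (0.746%) and 121 lower (0.618%), and these are said to have been called. The 4 hippocampus values did not overlap the 4 cortex values in 252 of the 267 called rows, against 15.9% of all rows tested. The difference had the same sign in all 4 animals for 263 of the 267. Rows without overlap must share the sign in every animal, so this count is not separate support from the pairs. Most differences were modest: the median size among the called rows was 1.33 on the log2 scale, 21 rows were at least 4-fold higher in the hippocampus and 4 at least 4-fold lower. Over all rows tested the median difference was -0.02. The shares of all rows that passed, and this median, are the background for every count of list members below. A small count near that background is not read as a result about its list.

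The 8 arrays were alike, with correlations between arrays of 0.9902 to 0.9958 within the cortex, 0.9934 to 0.9956 within the hippocampus and 0.9846 to 0.9914 between the regions. Some arrays stood apart in markers of neighbouring tissue, given here because they touch single results below. Mean values of 15 choroid plexus markers were 9.97 and 10.16 in hippocampus of animals 3 and 4, against 8.59 and 8.89 in animals 1 and 2 and 8.29 to 8.79 in the cortex. The mean of 18 markers of thalamus, habenula and midbrain was 10.72 and 10.07 in the same pair of hippocampus arrays and at most 9.76 on the other 6. Cortex of animal 3 had the lowest mean of 18 myelin genes (10.88 against 11.69 to 12.55 on the other 7 arrays). Its mean of 13 markers of amygdala, claustrum and piriform cortex (12.03) was above the other cortex arrays (11.08 to 11.26). Hippocampus of animal 4 was close to it on that list (11.98). Without hippocampus of animals 3 and 4 the count of called rows was 209, and without cortex of animal 3 it was 315.

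**Figure D1:**
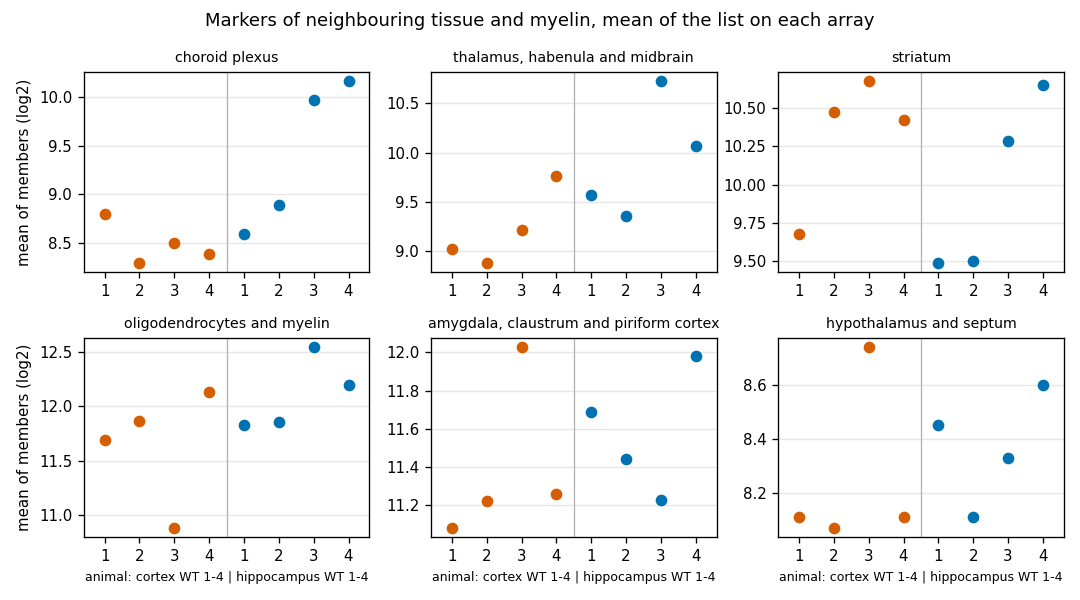
Mean deposited value (log2, vertical axis) of 6 marker lists on each of the 8 arrays (horizontal axis, animals 1 to 4 of cortex in orange and of hippocampus in blue). Hippocampus of animals 3 and 4 is highest for the choroid plexus list (9.97 and 10.16) and the thalamic list, and cortex of animal 3 is lowest for myelin (10.88).

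The genes most different between the regions encoded a calcium sensor, receptor partners, a growth factor, transporters and transcription factors. Cabp7, a calcium-binding protein of the calmodulin family, read 9.70, 9.98, 9.98 and 11.32 in the cortex of animals 1 to 4 and 13.54, 13.69, 13.84 and 13.08 in their hippocampus. The groups lay apart, with cortex of animal 4 the nearest to the hippocampus. The difference was 3.29 ± 0.31 (n = 4 per region), or 9.77-fold (adjusted p = 1.99e-07). Here and below ± on a difference is the standard error of the fit, whose spread comes from all 24 arrays. Shisa6, an auxiliary protein that holds AMPA receptors at the synapse, read 10.33, 10.03, 11.36 and 10.70 in the cortex against 14.21, 13.77, 14.20 and 13.23 in the hippocampus, a difference of 3.25 ± 0.36 (adjusted p = 1.67e-06).

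Tgfb2, a secreted ligand of the TGF-beta receptors, had the smallest standard error of these 12 genes. It read 8.79, 8.23, 8.85 and 8.92 in the cortex and 11.84, 11.86, 12.19 and 11.48 in the hippocampus, a difference of 3.14 ± 0.15 (adjusted p = 6.23e-13). Slc9a4, a sodium/proton exchanger, stood at 6.74, 6.76, 7.37 and 7.26 in the cortex and at 10.15, 10.35, 10.17 and 9.69 in the hippocampus. No value of one region came near the other, and Slc9a4 differed by 3.06 ± 0.26 (8.31-fold, adjusted p = 3.06e-08). Npy2r, the Y2 receptor for neuropeptide Y, which lies mostly on axon terminals, read 8.30, 8.18, 9.56 and 8.21 against 11.51, 11.00, 11.70 and 11.70. Cortex of animal 3 was the high array of its group, and the difference was 2.91 ± 0.26 (adjusted p = 4.83e-08).

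The remainder of the 12 genes with the largest differences were St18 (2.87), a zinc finger transcription factor, Syna (2.82), a membrane protein derived from a retroviral envelope, Slc44a5 (2.74), a choline transporter-like protein, Serpina3n (2.72), a secreted inhibitor of serine proteases, Prox1 (2.68), Olfml2b (2.52) and Prkcd (2.50). Each of these 12 had no overlap between the regions. Prkcd, protein kinase C delta and a marker of thalamic relay neurons, was the exception in spread: hippocampus of animal 3 read 14.53, and the other 3 hippocampus arrays 11.93, 11.35 and 12.19. Without hippocampus of animals 3 and 4 the Prkcd difference was 1.64 (adjusted p = 0.145), and the part of the thalamic markers in it was not tested.

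**Figure D2:**
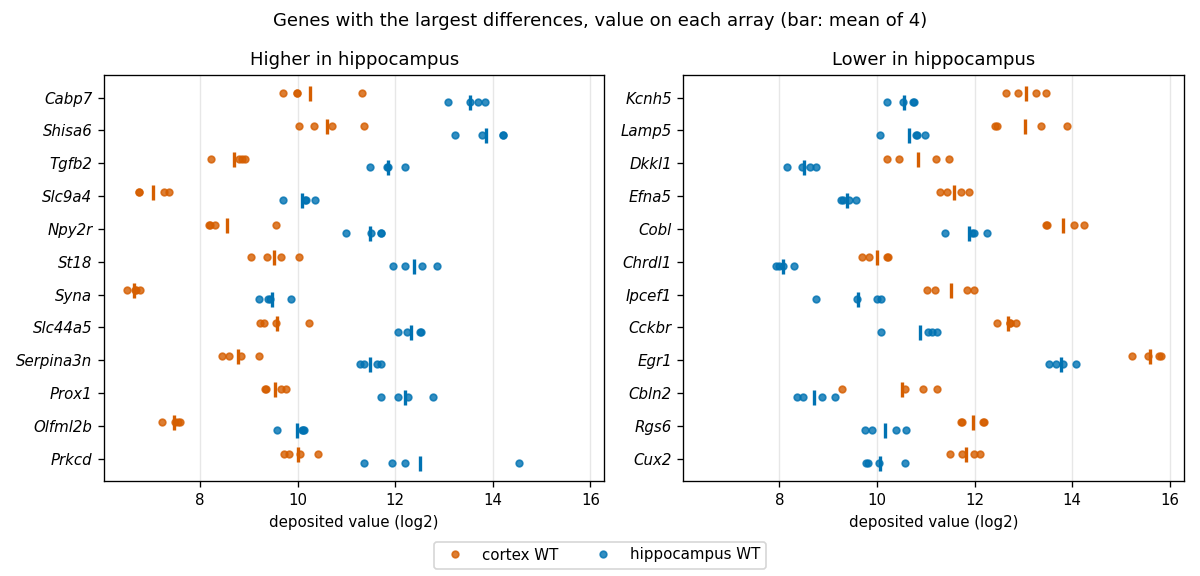
Deposited value (log2, horizontal axis) of the 12 genes with the largest and the 12 with the smallest hippocampus minus cortex difference among named called genes; points are single arrays (cortex WT orange, hippocampus WT blue) and bars the mean of 4. The regions do not overlap for any of the 24 genes, and Prkcd has 1 high hippocampus array (14.53).

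On the side of the cortex the largest difference belonged to Kcnh5, a voltage-gated potassium channel of the ether-a-go-go family. It read 13.25, 13.46, 12.65 and 12.89 in the cortex and 10.21, 10.54, 10.76 and 10.73 in the hippocampus, a difference of -2.50 ± 0.50 (adjusted p = 0.00176). Lamp5, a membrane protein of upper-layer neurons and some interneurons, read 13.89, 13.37, 12.42 and 12.46 against 10.79, 10.81, 10.06 and 10.99. The regions did not overlap and the difference was -2.37 ± 0.70 (adjusted p = 0.0393), but Lamp5 passed only in the fits without cortex of animal 3 or cortex of animal 4 of the 8 fits that each left out 1 array, where the largest adjusted p was 0.13. The fit takes 1 spread per gene from all 6 groups of arrays. With the animal as a fixed block on the 8 arrays alone Lamp5 passed (limma, adjusted p = 0.000188).

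Dkkl1, a secreted protein related to the Dickkopf inhibitors of Wnt signalling, differed by -2.33 ± 0.24 (adjusted p = 7.57e-07). Efna5, an ephrin ligand that repels growing axons, stood at 11.88, 11.72, 11.30 and 11.43 in the cortex and at 9.42, 9.31, 9.26 and 9.57 in the hippocampus, a difference of -2.19 ± 0.21 (adjusted p = 3.05e-07). Chrdl1, a BMP antagonist that astrocytes secrete, differed by -1.92, as did Cobl, an actin nucleator. The list of 12 closed with Ipcef1 (-1.90), Egr1 and Cckbr (-1.82 each), Rgs6 (-1.79), Cbln2 (-1.79), a partner of neurexins in synapse formation, and Cux2 (-1.78). Without cortex of animal 1 the Cbln2 difference was -1.55 (adjusted p = 0.0583). Cobl was at -1.69 (adjusted p = 0.0849) without hippocampus of animals 3 and 4.

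Many marker genes of dentate granule cells, and fewer of the CA fields, were higher in the arrays labelled hippocampus. Of 18 genes listed for dentate granule cells, 12 passed as higher and 0 as lower, 9 of the 12 at least 2-fold, and the median of the list was 1.00. The count was 9 without hippocampus of animals 3 and 4. Prox1, the homeobox transcription factor that sets granule cell identity, read 9.35, 9.66, 9.34 and 9.77 in the cortex against 12.27, 11.71, 12.78 and 12.06 in the hippocampus (2.68 ± 0.23, adjusted p = 2.71e-08). Dsp, the desmosome protein desmoplakin, read 7, 7.04, 7.27 and 7.13 against 9.20, 8.76, 9.70 and 9.13 (2.09 ± 0.17, adjusted p = 2.1e-08). Both genes had hippocampus of animal 3 highest and of animal 2 lowest.

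C1ql2, which granule cells release at mossy fibre synapses, had the widest spread within the hippocampus among these genes, at 11.05, 10.09, 11.43 and 9.82, but stayed clear of the cortex values of 8.12 to 8.95 (2.02 ± 0.27, adjusted p = 2.14e-05). Sema5a, a transmembrane semaphorin, differed by 1.93, Lct, the enzyme lactase, and Tdo2, the tryptophan-degrading dioxygenase, by 1.44 each. The 6 members that did not pass included Calb1 (0.24), the calcium buffer calbindin, C1ql3 (0.73) and Pdyn (-0.36), the precursor of dynorphin. Genes of dividing progenitors and immature neurons, which the dentate gyrus keeps into adulthood, were not set apart in the same way: of 16 measured, Hopx (0.80, adjusted p = 0.000542) passed as higher and Stmn1 (-0.78) as lower, while Dcx at -0.67 and Mki67 at 0.15 did not pass, and with the animal as a fixed block 2 passed as lower. Stmn1 did not pass without cortex of animal 1 or without hippocampus of animal 3, and 2 passed as higher without cortex of animal 4.

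Of 14 CA1 genes 5 passed as higher and 0 as lower (median 0.50). Spink8, a protease inhibitor, read 7.30, 7.01, 7.41 and 7.74 in the cortex and 10.01, 9.84, 10.14 and 9.02 in the hippocampus, with hippocampus of animal 4 the lowest of its group (2.39 ± 0.24, adjusted p = 3.8e-07). Gpr161 (1.67), Fibcd1 (1.67), Neurod6 (1.56) and Man1a (0.91) made up the 5. Wfs1, a protein of the endoplasmic reticulum often used to mark CA1, overlapped between the regions, with 11.61, 11.88, 12.80 and 12.36 in the cortex and 12.90, 13.23, 12.33 and 13.06 in the hippocampus (0.72 ± 0.23, adjusted p = 0.0622). Ndst4 differed by 2.02 without overlap but did not pass (adjusted p = 0.143), with a cortex level of 8.71 ± 1.36 (SD, n = 4).

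Most CA2 and CA3 genes that passed were also higher. Of 13 CA2 genes 4 passed as higher: Necab2 (1.59), Amigo2 (0.90), Stard5 (0.67) and Rgs14 (0.55), with a median of 0.45 over the list. In the fit that left out hippocampus of animals 3 and 4 this count was 2 and the median 0.10, and Rgs14 did not pass without cortex of animal 2 or without hippocampus of animal 3. Of 14 CA3 genes 6 passed as higher and Tyro3, a receptor tyrosine kinase, as lower (-0.85). The higher CA3 count was 4 without any 1 of cortex of animals 1 or 2 or hippocampus of animals 1, 2 or 4. Grik4, the high-affinity kainate receptor subunit of mossy fibre synapses, read 9.80, 9.66, 9.47 and 9.95 in the cortex and 11.00, 10.99, 11.29 and 10.41 in the hippocampus (1.20 ± 0.16, adjusted p = 2.3e-05). Homer3 (1.45), a postsynaptic scaffold protein, and Iyd (1.08), which recovers iodide from iodotyrosine, were also at least 2-fold higher.

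Most genes of the upper cortical layers were lower in the hippocampus. Of 15 genes listed for layers 2 to 4, 8 passed as lower, 5 of them at least 2-fold, and the median was -0.92; Hsd11b1 passed as higher (0.58), but not with the animal as a fixed block (adjusted p = 0.0897), nor without any 1 of cortex of animals 1, 2 or 3 or hippocampus of animals 1, 2 or 3. Cux2, a homeobox factor of upper-layer neurons, read 11.98, 12.11, 11.49 and 11.74 in the cortex and 10.05, 10.57, 9.82 and 9.77 in the hippocampus (-1.78 ± 0.20, adjusted p = 2.2e-06), with no overlap. Its relative Cux1 differed by -0.93, Rorb, the nuclear receptor of layer 4, by -1.30, and Rspo1, a secreted enhancer of Wnt signalling, by -1.28. The lower count of this list was 6 without any 1 of cortex of animals 1 or 2 or hippocampus of animals 1 or 3.

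Deep-layer genes passed in both directions. Of 15 layer 5 genes Crym (1.37), a thyroid hormone-binding protein, and Bcl11b (1.26), a zinc finger factor of subcortical projection neurons, passed as higher, and Scube1 (-0.96) and Qrfpr (-0.74) as lower. With the animal as a fixed block 4 passed as higher and 2 as lower, but Qrfpr did not (adjusted p = 0.0833). Qrfpr also did not pass without any 1 of cortex of animals 1 or 3 or hippocampus of animals 1, 3 or 4. Fezf2, which specifies subcerebral projection neurons, read 12.46, 12.13, 11.40 and 12.20 in the cortex and 12.49, 12.37, 11.52 and 11.72 in the hippocampus, so the regions overlapped throughout (-0.02 ± 0.30, adjusted p = 0.977). Of 16 genes of layer 6 and the subplate 4 passed as lower and 2 as higher, with Tbr1, a T-box factor, the most different at 14.38, 14.37, 13.93 and 13.83 against 12.71, 13.05, 11.99 and 12.25 (-1.63 ± 0.24, adjusted p = 7.91e-05). Without hippocampus of animal 3 the lower count was 2.

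**Figure D3:**
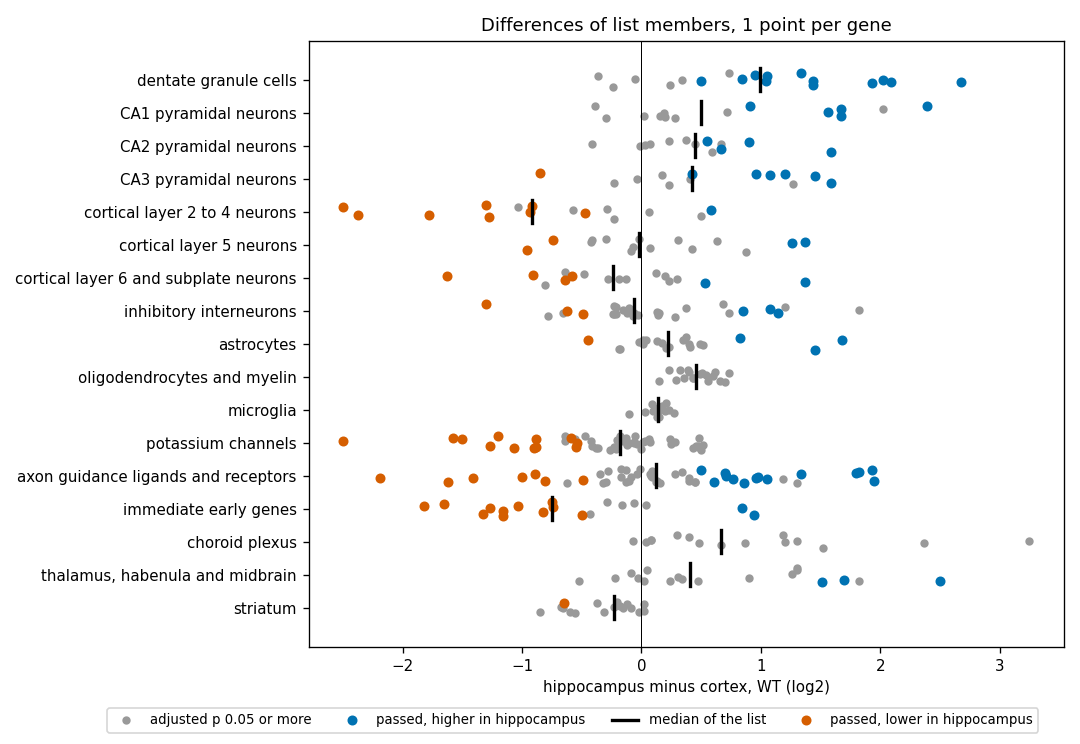
Hippocampus minus cortex difference in WT mice (log2, horizontal axis) of the members of 17 gene lists, 1 point per gene; blue and orange points passed as higher or lower in the hippocampus, grey points did not pass, and black bars are list medians. The dentate granule list lies to the right of 0 (median 1.00), the lists for layers 2 to 4 (-0.92) and for immediate early genes (-0.75) to the left.

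Genes shared by excitatory neurons in general centred on 0, with a median of -0.03 over 12. Mef2c, an activity-regulated transcription factor, passed as lower, reading 16.57, 16.69, 16.40 and 15.96 in the cortex and 14.82, 15.00, 13.87 and 14.93 in the hippocampus (-1.75 ± 0.21, adjusted p = 4.13e-06). The basic helix-loop-helix factors Neurod6 (1.56) and Neurod2 (0.94) passed as higher. Slc17a7, the vesicular glutamate transporter of these neurons, differed by -0.12 and did not pass. Among 36 transcription factors of forebrain patterning, 8 passed as higher and 7 as lower, around a median of 0.02. Beside Prox1 and Bcl11b the higher ones included Nfib (0.81), Lmo1 (0.72), Emx2 (0.58) and Nfia (0.53), and beside Cux2, Mef2c, Tbr1 and Cux1 the lower ones included Id2 (-0.74). The higher count was 2 without hippocampus of animals 3 and 4.

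Interneuron genes showed no common direction. Of 28 measured, 3 passed as higher (Nos1 1.14, Kit 1.08, Htr3a 0.85) and 3 as lower (Vip -1.30, Npy -0.62, Crh -0.49), with a median of -0.06, and with the animal as a fixed block 7 passed as higher and 3 as lower. Vip, the peptide of a class of interneurons that inhibit other interneurons, read 10.56, 10.60, 10.04 and 9.91 in the cortex and 9.30, 9.29, 8.47 and 8.85 in the hippocampus (-1.30 ± 0.24, adjusted p = 0.00083). Nos1, the neuronal nitric oxide synthase, was separated by only 0.04 between the highest cortex and the lowest hippocampus array, and did not pass without cortex of animal 1 or of animal 2. Npy did not pass without any 1 of cortex of animals 1, 2 or 3 or hippocampus of animals 2 or 3. When hippocampus of animals 3 and 4 was left out, 2 interneuron genes passed as higher and 0 as lower.

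Few glutamate receptor subunits passed, and their auxiliary proteins passed in both directions. Of 16 ionotropic subunits Gria1, the GluA1 subunit of AMPA receptors, and Grik4 were at least 2-fold higher, and the list median was 0.15. Gria1 read 15.76, 15.84, 16.35 and 16.05 in the cortex and 17.34, 17.04, 17.23 and 17.26 in the hippocampus (1.22 ± 0.17, adjusted p = 3.01e-05), values near the upper end of the table. Grik3 passed as lower (-0.69, adjusted p = 0.0492), but not without any 1 of 6 arrays (cortex of animals 1, 2 and 3, hippocampus of animals 1, 3 and 4), nor on all arrays without a block (adjusted p = 0.0504) or on the 16 cortex and hippocampus arrays (0.0794). With the animal as a fixed block 2 subunits passed as lower. Of 17 auxiliary proteins, 4 passed as higher and 3 as lower: with Shisa6 and C1ql2 the higher ones were Cnih2 (1.16), a cornichon that slows AMPA receptor closing, and Cacng8 (0.86), a transmembrane AMPA receptor regulatory protein. Lower were Gsg1l (-0.94) and the regulatory proteins Cacng3 (-0.83) and Cacng2 (-0.66). The lower count was 0 without hippocampus of animals 3 and 4 and 5 with the animal as a fixed block. Of 5 metabotropic receptors Grm3 passed as lower (-0.86, adjusted p = 0.00118), and with the fixed block 1 also passed as higher.

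Among 14 GABA-A receptor subunits 3 passed as higher. Gabra5, the alpha 5 subunit, read 14.06, 13.84, 14.62 and 14.54 in the cortex and 16.43, 16.23, 16.33 and 16.03 in the hippocampus, a difference of 1.99 ± 0.54 with no overlap (adjusted p = 0.0234). Gabrb1 differed by 0.78 (adjusted p = 0.000455). Gabra2 differed by 1.25 with overlapping values (adjusted p = 0.0471) and passed in 2 of the 8 fits that left out 1 array, those without cortex of animal 3 and hippocampus of animal 4. Under quantile normalization (adjusted p = 0.066) and on the 8 arrays alone without a block (0.0664) Gabra2 did not pass. The count was 1, with Gabrb1 alone, without any 1 of cortex of animals 1 or 2 or hippocampus of animals 1 or 3. In the animals lacking liver glutamine synthetase Gabra5 differed by 1.28 and did not pass (adjusted p = 0.184). With the animal as a fixed block on the 8 arrays alone Gabra5 passed (limma, adjusted p = 0.000135), and 2 subunits also passed as lower.

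Receptors for modulators differed one by one. Of 35 monoamine and acetylcholine receptors 7 passed as higher, 5 of them at least 2-fold, and 6 as lower, none of those 2-fold. Drd5, the D5 dopamine receptor, read 7.99, 7.98, 7.92 and 8.82 in the cortex and 10.01, 9.85, 10.52 and 9.14 in the hippocampus (1.70 ± 0.23, adjusted p = 3.78e-05), and animal 4 had the highest cortex and the lowest hippocampus value. Chrm5, a muscarinic receptor (1.35), Htr4 (1.33) and Htr1a (1.12), serotonin receptors, and Chrna7, the alpha 7 nicotinic subunit (1.01), were the other 2-fold differences. The lower ones were led by Hrh2 (-0.80) and Adra1b (-0.74). Their count was 3 without any 1 of cortex of animals 1 or 2 or hippocampus of animal 1, to 2 without hippocampus of animal 3, and was 1, against 4 higher, without hippocampus of animals 3 and 4.

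Of 30 neuropeptide receptors 2 passed as higher and 3 as lower, against 4.07% and 3.01% of all rows. Under the fixed animal block these counts were 6 and 4. Cckbr, the brain receptor for cholecystokinin, read 12.85, 12.73, 12.73 and 12.46 in the cortex and 11.05, 11.13, 10.09 and 11.22 in the hippocampus (-1.82 ± 0.23, adjusted p = 1.18e-05), while Npy2r was higher as described. Crhr1, the receptor for corticotropin-releasing hormone, differed by -0.96 and Mc4r, the melanocortin 4 receptor, by 0.78. Without cortex of animal 4 the lower count was 5.

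The corticosteroid receptors did not move together. Nr3c2, the mineralocorticoid receptor, which the hippocampus is known to hold at high level, read 11.26, 11.28, 11.82 and 11.93 in the cortex and 13.82, 13.70, 13.90 and 13.74 in the hippocampus. Its 4 hippocampus values lay within 0.20 of each other, and the difference was 2.21 ± 0.17 (adjusted p = 8.61e-09). Nr3c1, the glucocorticoid receptor, read 9.90, 10.01, 9.50 and 9.62 against 9.21, 9.20, 9.22 and 9.31, all 4 below the cortex, but did not pass (-0.52 ± 0.17, adjusted p = 0.071). The regulated genes Fkbp5 (0.66), Klf9 (-0.14) and Ddit4 (0.30) did not pass either.

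Among the potassium channel genes that passed, all were lower in the hippocampus. Of 51 measured, 12 passed as lower and 0 as higher, against 3.01% and 4.07% of all rows, and the median was -0.18. Leaving out cortex of animal 3 gave 2 higher, and leaving out cortex of animal 1, cortex of animal 4 or hippocampus of animal 4 gave 1. Beside Kcnh5, its relatives Kcnh4 (-1.50) and Kcnh7 (-1.27), the silent subunits Kcnv1 (-1.58) and Kcnf1 (-1.07), and Kcnt1 (-1.20), a channel opened by sodium, were at least 2-fold lower. Kcnh4 read 9.55, 9.83, 9.41 and 9.36 in the cortex and 7.85, 7.84, 8.14 and 8.32 in the hippocampus (-1.50 ± 0.24, adjusted p = 0.000171). The count of lower channels was 7 without cortex of animal 1 and 6 without hippocampus of animals 3 and 4. Under quantile normalization 15 passed as lower and 1 as higher, with equal array medians 13 and 1, and with the fixed animal block 13 and 4.

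Among 24 sodium, calcium and HCN channel genes Scn3b, a sodium channel beta subunit, was the only 2-fold difference (1.62 ± 0.44, adjusted p = 0.024). It read 12.93, 12.77, 13.58 and 12.76 in the cortex and 14.61, 14.68, 14.67 and 14.57 in the hippocampus, without overlap, yet of the 8 fits that left out 1 array it passed only without cortex of animal 3. With the animal as a fixed block on the 8 arrays alone Scn3b passed (limma, adjusted p = 0.000188). Of 36 genes of vesicle release 7 passed as lower and 3 as higher (median -0.20). Stx1a, a plasma membrane SNARE protein, read 13.03, 12.82, 12.62 and 11.98 against 11.05, 11.19, 10.38 and 11.28 (-1.64 ± 0.27, adjusted p = 0.000306), and Rims3, an active zone protein, differed by -1.35. Doc2b, a calcium sensor for spontaneous release, went the other way at 1.87 ± 0.27, with 9.37, 9.78, 11.03 and 10.42 in the cortex and 12.06, 11.91, 12 and 12.14 in the hippocampus. The count of 7 was 8 without cortex of animal 4, 4 without cortex of animal 3, 3 without any 1 of the other 6 arrays and 2 without hippocampus of animals 3 and 4, and it was 10 under quantile normalization.

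Calcium-binding proteins also passed in both directions. Of 26 measured, Cabp7, Necab2 (1.59) and Hpca (1.40) passed as higher and Cabp1 (-1.39), Necab3 (-1.13), Efhd2 (-1.12) and S100a10 (-0.68) as lower, around a median of 0.05. Hpca, the neuronal calcium sensor hippocalcin, read 15.86, 16.19, 15.70 and 16.14 in the cortex and 17.32, 17.42, 17.50 and 17.24 in the hippocampus (1.40 ± 0.22, adjusted p = 0.000173). Cabp1, a relative of Cabp7, read 13.87, 13.95, 13.52 and 13.52 against 12.37, 12.35, 12.20 and 12.39 (-1.39 ± 0.18, adjusted p = 1.96e-05). The cell class markers Pvalb (-0.78), Calb2 (1.82) and Pcp4 (-0.41) did not pass. S100a10 passed in 2 of the 8 fits that left out 1 array, those without cortex of animal 4 and hippocampus of animal 1.

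By count, but not by share of its members, axon guidance led the 48 lists, and it was among the longest. Immediate early genes had a larger share, with 11 lower and 2 higher of 18. Of 49 measured, 14 passed as higher and 7 as lower, against 4.07% and 3.01% of all rows. Of these, 6 and 3 were at least 2-fold, and the median was 0.12. Among ligands, Slit1, a secreted repellent, read 10.52, 10.41, 11.29 and 11.05 in the cortex and 13.02, 12.68, 12.80 and 12.60 in the hippocampus (1.95 ± 0.27, adjusted p = 4.32e-05). Sema3a, a secreted semaphorin, was lower, with 11.09, 10.96, 10.45 and 10.20 against 8.82, 9.21, 8.49 and 9.72 (-1.62 ± 0.20, adjusted p = 8.43e-06), as was Efna5. Sema3e differed by 0.96 and Sema3f by -0.81, so class 3 semaphorins did not share a direction.

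Among the guidance receptors, Nrp2, a semaphorin co-receptor, read 9.03, 8.67, 10.40 and 8.96 in the cortex and 11.15, 10.62, 11.05 and 11.43 in the hippocampus, with cortex of animal 3 close to the lowest hippocampus array (1.80 ± 0.28, adjusted p = 0.000134). The ephrin receptors Epha6 (1.82), Epha7 (1.34) and Epha4 (1.05), which bind ephrins such as Efna5, passed as higher and Ephb6 (-1.0) as lower. Robo1, a receptor for Slit proteins, differed by 0.86, the plexins Plxna4 by 0.98 and Plxna1 by 0.61, and Plxnd1, the receptor of Sema3e, by -1.41. The counts were 10 higher and 4 lower without hippocampus of animals 3 and 4. Cadherins were divided as well, with 5 of 29 higher and 6 lower: Cdh9, which takes part in mossy fibre synapse formation, differed by 1.84 ± 0.26 and Cdh6 by -1.29. The count of lower cadherins was 3 without hippocampus of animal 1 or of animal 3, and 2 without animals 3 and 4.

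In the TGF-beta and BMP pathway Tgfb2 stood apart from the other members. Of 34 measured, Tgfb2, Gdf10 (1.14), a ligand of the same family, and the co-receptor Tgfbr3 (0.78) passed as higher and Bmp3 (-0.73) as lower, with a median of 0.13. The shares over all rows, here and for the Wnt genes, were 4.07% higher and 3.01% lower. Tgfb1 differed by -0.24 and Smad3, which carries the signal to the nucleus, by -0.40, and neither passed. Bmp3 passed in only 2 of the 8 fits that left out 1 array, those without cortex of animal 4 and hippocampus of animal 2, and Gdf10 not without cortex of animal 1. With the animal as a fixed block 5 members passed as higher and 0 as lower. Of 35 Wnt pathway genes 4 passed as lower, led by Dkkl1 and Rspo1, and Wnt7b (0.56), a secreted Wnt ligand, as higher, which passed in 2 of the 8 fits that left out 1 array and was joined by another under the fixed animal block. The lower count was 2 without cortex of animal 1, and also without hippocampus of animals 3 and 4. Of 24 neurotrophins and growth factors, Fgf13, an intracellular partner of sodium channels, was at least 2-fold higher (1.04, adjusted p = 0.000203), Nrg1 lower (-0.99), and Bdnf, which is listed with the activity genes, did not pass (0.04 ± 0.21, adjusted p = 0.942).

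Most immediate early genes, which neurons switch on within minutes of activity, were lower in the hippocampus. Of 18 measured, 11 passed as lower, 7 of them at least 2-fold, and 2 as higher, with a median of -0.75 against -0.02 over all rows. The lower count was 9 without hippocampus of animals 3 and 4. Egr1, a zinc finger transcription factor, read 15.56, 15.77, 15.22 and 15.82 in the cortex and 13.67, 14.07, 13.53 and 13.81 in the hippocampus (-1.82 ± 0.26, adjusted p = 4.57e-05). Arc, a synaptic protein whose RNA travels into dendrites, read 13.09, 13.09, 12.04 and 12.53 against 11.38, 11.33, 11.02 and 10.41 (-1.65 ± 0.24, adjusted p = 6.55e-05). Neither gene overlapped between the regions.

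Of the other transcription factors in this group, Egr2 (-1.33), Nr4a1 (-1.27) and Egr3 (-1.16) were at least 2-fold lower, as were Homer1 (-1.16), a postsynaptic scaffold protein, and Dusp1 (-1.03), a phosphatase that turns off MAP kinases. Fos read 10.05, 10, 10.52 and 10.50 in the cortex and 9.69, 9.18, 9.53 and 9.64 in the hippocampus (-0.75 ± 0.16, adjusted p = 0.00309), a smaller but separate difference. Fosb differed by -0.74. Npas4 overlapped, with 10.20, 9.60, 9.82 and 9.25 against 9.49, 8.83, 8.66 and 8.64 (-0.82, adjusted p = 0.0261), and did not pass without any 1 of cortex of animals 1 or 3 or hippocampus of animals 2, 3 or 4. The labels do not state the time of day or the handling before tissue was taken.

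Jun and Nr4a3 differed in the opposite direction. Jun read 10, 10.07, 10.75 and 10.26 in the cortex and 11.55, 10.99, 11.15 and 11.16 in the hippocampus (0.94 ± 0.16, adjusted p = 0.000438). Nr4a3, an orphan nuclear receptor and close relative of Nr4a1, read 13.82, 13.76, 13.93 and 13.90 against 14.83, 14.73, 14.68 and 14.53 (0.84 ± 0.19, adjusted p = 0.00614). In both genes all 4 hippocampus values exceeded all 4 cortex values. The members that did not pass were Junb (-0.43), Fosl2 (-0.29), Ier2 (-0.16), Btg2 (-0.06) and Bdnf.

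**Figure D4:**
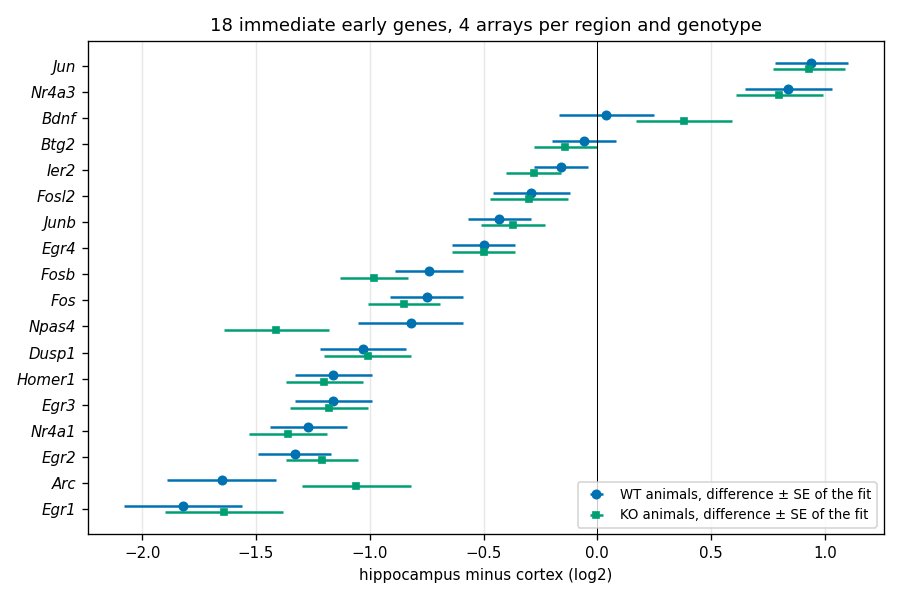
Hippocampus minus cortex difference (log2, horizontal axis) of 18 immediate early genes with the standard error of the fit, in WT animals (circles) and in animals with the liver knockout (squares), 4 arrays per region and genotype. Jun (0.94) and Nr4a3 (0.84) lie to the right of 0, and Egr1 (-1.82) and Arc (-1.65) are farthest to the left in WT animals.

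The promoters of 5 lower members and of Jun are shown because the cAMP response half-site, the letters TGACG or their reverse CGTCA, is the sequence on which activity-regulated genes are best known to bind CREB. Each is the 250 bases before the start site from RefSeq, build GRCm38.p6, on the strand of the gene, and capitals mark half-sites. Fos lies on the plus strand at chr12:85473640-85473889, Egr2 on the plus strand at chr10:67535249-67535498, Nr4a1 on the plus strand at chr15:101266596-101266845, Npas4 on the minus strand at chr19:4989972-4990221, Dusp1 on the minus strand at chr17:26508473-26508722 and Jun on the minus strand at chr4:95052223-95052472.
Fos: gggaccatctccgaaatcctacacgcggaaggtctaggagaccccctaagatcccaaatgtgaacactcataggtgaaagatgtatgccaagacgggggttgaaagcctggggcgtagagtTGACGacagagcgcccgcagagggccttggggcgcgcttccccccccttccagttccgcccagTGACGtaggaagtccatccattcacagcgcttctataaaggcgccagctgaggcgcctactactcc
Egr2: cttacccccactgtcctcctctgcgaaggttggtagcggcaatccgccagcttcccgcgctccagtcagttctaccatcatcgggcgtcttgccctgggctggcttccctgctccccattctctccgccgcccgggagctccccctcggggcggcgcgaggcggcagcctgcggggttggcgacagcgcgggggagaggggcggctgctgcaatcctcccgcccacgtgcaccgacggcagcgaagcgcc
Nr4a1: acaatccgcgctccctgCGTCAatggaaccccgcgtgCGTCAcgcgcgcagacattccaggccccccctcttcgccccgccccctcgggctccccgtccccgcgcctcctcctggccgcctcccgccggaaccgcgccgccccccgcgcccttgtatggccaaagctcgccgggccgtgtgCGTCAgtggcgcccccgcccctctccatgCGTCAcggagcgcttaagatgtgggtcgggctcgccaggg
Npas4: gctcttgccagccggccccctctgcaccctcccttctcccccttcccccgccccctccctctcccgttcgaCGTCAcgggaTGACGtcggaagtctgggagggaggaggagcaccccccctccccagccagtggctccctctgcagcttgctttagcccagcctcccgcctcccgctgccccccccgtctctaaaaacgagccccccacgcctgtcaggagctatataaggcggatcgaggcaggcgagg
Dusp1: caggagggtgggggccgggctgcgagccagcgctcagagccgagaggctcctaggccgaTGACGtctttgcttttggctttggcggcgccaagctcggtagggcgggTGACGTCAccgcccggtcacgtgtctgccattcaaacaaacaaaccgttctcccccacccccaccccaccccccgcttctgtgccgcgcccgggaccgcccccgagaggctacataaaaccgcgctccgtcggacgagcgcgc
Jun: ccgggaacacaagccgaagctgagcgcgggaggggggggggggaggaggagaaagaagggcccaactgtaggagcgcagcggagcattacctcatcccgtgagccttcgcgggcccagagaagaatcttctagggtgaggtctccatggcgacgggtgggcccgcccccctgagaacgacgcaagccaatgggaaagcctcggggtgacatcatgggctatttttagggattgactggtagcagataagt

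Fos holds 2 half-sites in this window, Nr4a1 4, Npas4 2 and Dusp1 3, while Egr2, which was lower, and Jun, which was higher, both hold 0. The half-sites of Dusp1 include a full palindromic element, TGACGTCA, which reads the same on both strands and so counts on each. Of the 14 immediate early genes with an entry in the table, 10 (71.4%) held TGACG on either strand, against 21.0% of 15691 promoters of genes on the array, when the first listed start site stood for each gene. The members that held it went both ways, since Nr4a3 held it too. Over all called genes the share was 15.0% of 113 promoters of higher genes and 20.2% of 89 promoters of lower genes. The full element TGACGTCA was in 0 of 113, 2 of 89 and 2.06% of all promoters, the letters CAGATG, an E-box of NeuroD-type factors, in 12.4%, 12.4% and 12.3%, and the T-box half-site TCACACCT in 0, 0 and 1.01%. The CArG box, which binds serum response factor, was in 1.77%, 0 and 1.34%, and in 0 of the 14 immediate early genes. Only exact matches within the 250 bases were counted, and Egr1, Egr3, Arc and Ier2 had no entry. Boxes farther from the start site were not searched for.

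Astrocyte genes differed at single members. Of 20 measured, Agt (1.68), Gfap (1.45) and Aqp4 (0.83) passed as higher and Aldh1l1 as lower (-0.45), with a median of 0.22, and under the fixed animal block 6 passed as higher. Gfap, the intermediate filament of astrocytes, read 11.91, 11.41, 11.92 and 12.34 in the cortex and 13.42, 13.32, 13.48 and 13.15 in the hippocampus (1.45 ± 0.28, adjusted p = 0.00156). Agt, the angiotensin precursor, overlapped slightly, with 10.27, 10.33, 11.75 and 12.38 against 12.37, 12.82, 13.42 and 12.84, and did not pass without cortex of animal 1 or 2 or hippocampus of animal 3. Aldh1l1 did not pass under the fixed animal block (adjusted p = 0.0564), nor without cortex of animal 1 or 4 or hippocampus of animal 4. Without that pair of hippocampus arrays (animals 3 and 4) 1 astrocyte gene passed as higher and 0 as lower.

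The difference was above 0 for all 18 myelin genes measured, with a median of 0.46, but 0 passed at the adjusted threshold, and 0 passed in any fit that left out 1 array. The median was 0.20 without cortex of animal 3 and 0.18 without hippocampus of animals 3 and 4. Of 14 microglial genes and of 10 genes of pericytes and smooth muscle 0 passed (medians 0.14 and 0.12), and of 15 endothelial genes Ocln, a tight junction protein, passed as higher (0.97, adjusted p = 0.000203). These counts are those of limma with adjustment over all rows.

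Markers of tissue next to the dissected regions were checked as lists. Ttr, the transthyretin of choroid plexus, read 15.28, 11.61, 11.71 and 11.43 in the cortex and 13.60, 14.37, 17.40 and 17.69 in the hippocampus, a difference of 3.25 ± 1.68 that did not pass (adjusted p = 0.274). Cortex of animal 1 was high among the cortex arrays, and hippocampus of animals 3 and 4 were high among all 8. Of the 15 choroid plexus markers 14 were above 0 and 0 passed, or 1 without cortex of animal 4 or hippocampus of animal 1 and 2 under the fixed animal block. Their median was 0.67, and 0.11 without hippocampus of animals 3 and 4. Of 18 thalamic and midbrain markers Prkcd, Lhx9 (1.70) and Plekhg1 (1.51) passed as higher, and 0 without hippocampus of animals 3 and 4, while 6 passed with the animal as a fixed block. Lhx9 did not pass without cortex of animal 1 or of animal 2. Striatal markers had 1 of 17 lower, Foxp1 (-0.65), with means of 9.49 and 9.50 in hippocampus of animals 1 and 2 and 10.28 and 10.65 in animals 3 and 4. Foxp1 passed in 2 of the 8 fits that left out 1 array, those without cortex of animal 3 and cortex of animal 4, and 2 striatal markers passed as lower under the fixed block. Of 15 genes of meninges and fibroblasts Dcn, a proteoglycan, passed as higher (2.17), 2 passed without cortex of animal 4 or hippocampus of animal 2 and 3 under the fixed block, and the list means ran from 9.48 to 10.22 in the cortex and from 9.99 to 10.41 in the hippocampus.

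Other lists had few members past the threshold, and most of these counts moved when 1 array was left out. Over all rows 4.07% passed as higher and 3.01% as lower. Of 8 genes of dentate mossy cells 1 passed as higher, 0 without cortex of animal 1 or 2 or hippocampus of animal 4, and 2 without hippocampus of animal 2. Of 24 genes of the extracellular matrix 3 were higher, 0 without hippocampus of animal 1 and 1 without hippocampus of animal 3. Of 29 genes of the respiratory chain 2 were higher, led by Sdhd (0.45), a subunit of succinate dehydrogenase, and 1 without any 1 of cortex of animals 1 or 3 or hippocampus of animal 1. Of 11 ependymal genes 3 were higher, and 1 without hippocampus of animal 3 or of animal 4.

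Among 24 sodium, calcium and HCN channels 3 passed as higher and 2 as lower. The higher count was 1 without any 1 of cortex of animals 1, 2 or 4 or hippocampus of animals 1, 3 or 4. The lower count was 0 without cortex of animal 2 or hippocampus of animal 4, and 1 without cortex of animal 1 or any 1 of hippocampus of animals 1, 2 or 3. Both were 0 without hippocampus of animals 3 and 4. Of 12 corticosteroid genes 2 passed as higher and 1 as lower, but 1 was higher without any 1 of the cortex arrays of animals 1 to 3 or the hippocampus arrays of animals 1 to 3, and 0 lower without any 1 of cortex of animals 1, 2 or 4 or hippocampus of animals 1, 3 or 4. Of 24 growth factors 3 passed as higher and 1 as lower, or 2 lower without cortex of animal 4 and 4 lower under the fixed animal block.

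For neighbouring regions, 2 of 13 genes of amygdala, claustrum and piriform cortex were higher and 1 lower. The higher count was 1 without any 1 of cortex of animals 1 or 2 or of the 4 hippocampus arrays, and the lower count was 0 without any 1 of cortex of animals 1, 2 or 3 or hippocampus of animals 2 or 3 and 2 without hippocampus of animal 4. Of 10 genes of subiculum and retrosplenial cortex 1 was higher, with 0 in 6 of the 8 fits that left out 1 array, 1 without cortex of animal 4 and 2 without cortex of animal 3. Of 16 cerebellar markers 2 were higher, and 1 without any 1 of cortex of animals 1 or 2 or hippocampus of animals 2 or 3. Of 16 olfactory bulb markers 1 was higher and 1 lower in each of these 8 fits, and of 16 hypothalamic and septal markers 1 was lower, joined by 1 higher without cortex or hippocampus of animal 3. Of 7 precursor genes of oligodendrocytes and of 2 genes of red blood cells 0 passed.

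The regional differences recurred between the regions of the KO animals. Their arrays gave separate differences but entered the same fit, and 1 spread per gene served both genotypes. The shares that passed in both are therefore not independent. Between hippocampus and cortex of the 4 animals with the liver knockout 363 rows were called (1.85% of those tested), 187 higher and 176 lower. All 267 rows called in WT had the same sign there, 239 of them (89.5%) passed, and 216 (80.9%) were called again, which is 59.5% of the rows called in the KO. The median size over the 267 was 1.32 in the KO against 1.33 in WT. Prkca (1.13 in WT, 0.03 in the KO) and Rerg (1.08 and 0.14) were the least alike of the higher genes and were picked out after their values were seen. Rerg did not pass in WT without any 1 of cortex of animals 1 or 2 or hippocampus of animals 3 or 4. Tested directly, the region difference depended on genotype in 0 rows with limma at an adjusted p under 0.05 (smallest 0.9999). At an unadjusted p under 0.05 there were 813 of 19572 rows, no more than that limit gives by chance. Even Prkca, with a gap of -1.11 between the genotypes, did not pass, so 0 rows does not show that the differences are equal.

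**Figure D5:**
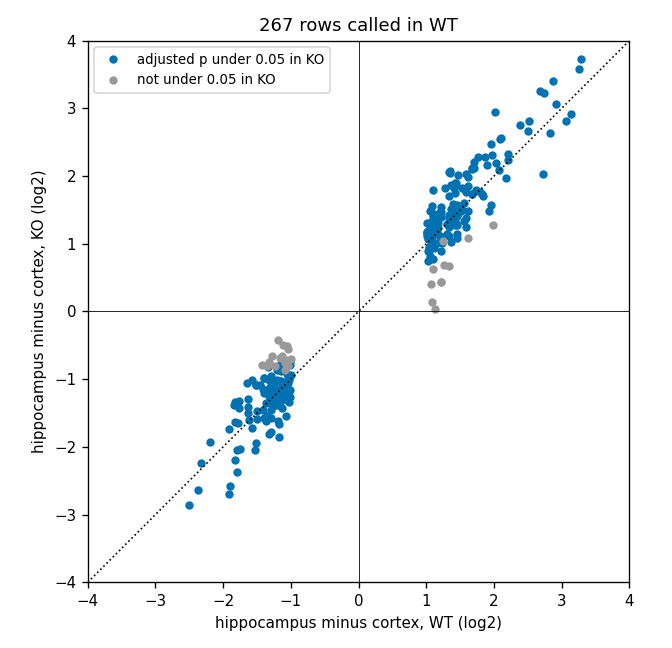
Hippocampus minus cortex difference of the 267 rows called in WT (log2), in WT animals (horizontal axis) and in animals with the liver knockout (vertical axis); the dotted line marks equal differences, and grey points did not pass in the KO. All 267 points lie in the lower left or upper right part, where both genotypes share the sign.

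Levels in the cerebellum of the WT mice, given as mean ± SD of 4 arrays, placed these genes differently. St18 stood at 15.48 ± 0.33 there, above 9.52 ± 0.41 in the cortex and 12.39 ± 0.39 in the hippocampus. Shisa6 (13.78 ± 0.21) was within its spread of the hippocampus (13.85 ± 0.46), and Prox1 (11.93 ± 0.14) of the hippocampus at 12.21 ± 0.45. Tgfb2 (9.13 ± 0.05), Slc9a4 (6.75 ± 0.14) and Nr3c2 (11.42 ± 0.23) were closer to their cortex means of 8.70, 7.03 and 11.57 than to those of the hippocampus. Lamp5 (7.11 ± 0.45), Tbr1 (7.04 ± 0.32) and Mef2c (11.83 ± 0.29) were below both forebrain regions, whose means were 13.03 and 10.66, 14.13 and 12.50, and 16.40 and 14.66 in cortex and hippocampus. Egr1 was at 11.35 ± 0.68 in the cerebellum, also below both.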

How the data were processed

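The deposited values are log2 expression per transcript cluster and array, which the authors made with RMA (background correction, normalization between arrays, probe summary) per the submitters' processing notes. Version, settings and build are not given in these sources, and the labels name both biotin and Cy3, so the labelling chemistry is not settled. The values themselves fit a log2 scale (3.888 to 19.14, array medians 8.719 to 8.816, 291 rows above 16). Detection above background could not be judged, and the number of arrays limits the precision. Rows without a gene (2634) were left out; no row was filtered.

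Differences were fitted with limma 3.58.1 and statmod 1.5.0 in R 4.3.3 (lmFit, eBayes, 2-sided) on all 24 arrays, 1 mean per group, animal as a random block (duplicateCorrelation, 0.00646), 18 residual and 6.896 prior degrees of freedom, and tested on simulated data. P-values were adjusted by Benjamini-Hochberg over 19572 rows. Passed means adjusted p under 0.05, called also 2-fold. A fold is 2 to the power of a log2 difference. The pairing comes from the animal numbers in the labels. Deviations of same-numbered WT arrays correlated at 0.158, 0.0363, -0.117 and 0.0356. Those of differently numbered WT arrays ran from -0.223 (cortex of animal 4, hippocampus of animal 1) to 0.213 (cortex of animal 4, hippocampus of animal 3). Same-numbered arrays thus did not stand out. P-values rest on 1 spread per gene taken from all 24 arrays, cerebellum and KO arrays included, with 4 animals per region and genotype.

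The comparison, its members and the 48 gene lists were chosen with earlier results of these data known, and lists are described by counts and medians. Named genes are the 12 largest and 12 smallest called differences, predicted and unnamed transcripts left out, and from each list the called members and those of smallest p, more where a family is described. For a symbol with several rows the brightest stands. Promoters are RefSeq, GRCm38.p6. Alternatives covered the block, the arrays in the fit, scaling, dim rows, the prior, array weights, the fold minimum and each array left out. The TGACG and CArG motifs, and the fit without hippocampus of animals 3 and 4, were added after the data were seen.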

Additional observations from a re-analysis of the deposited data

Results flagged for a closer look

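In groups of 4 arrays, 9 of 144 groups checked (both regions for 24 genes and 48 list means) had 1 array farther from the rest than Dixon's critical share of the range; chance gives about 1 in 20. For single genes these were Npy2r in cortex of animal 3 (9.56, the others 8.18 to 8.30), Olfml2b in hippocampus of animal 4 (9.58, the others 10.09 to 10.14) and Cckbr in hippocampus of animal 3 (10.09, the others 11.05 to 11.22).

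Of the 6 list means, 5 belonged to cortex of animal 3, which was the high array for CA3 genes (10.31 against 10.09 to 10.12), axon guidance genes (10.88 against 10.71 to 10.73), ependymal genes (7.25 against 7.05 to 7.06), olfactory bulb markers (8.99 against 8.80 to 8.81) and hypothalamic and septal markers (8.74 against 8.07 to 8.11). The other was the astrocyte mean of cortex of animal 4 (12.82 against 12.40 to 12.46). Leaving out cortex of animal 3 gave 315 called rows in place of 267.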

How the results depend on the processing

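The count of 267 called rows moved with the fold minimum, to 1387 with none, 747 at 1.5-fold and 25 at 4-fold, and the KO count of 363 to 1342, 855 and 52. With the animal number as a fixed replicate block on the 8 arrays the WT count was 283, and all 267 rows still passed with the same sign. Among other named genes Aldh1l1 (limma, adjusted p = 0.0564), Bmp3 (0.113), Hsd11b1 (0.0897) and Qrfpr (0.0833) did not pass in that fit. It changes both the block and the arrays used, so these losses cannot be credited to the pairing. Bmp3 also did not pass on the 8 arrays without a block (0.0664). Leaving out 1 array at a time gave 225 to 315 in WT and 316 to 401 in the KO. Every other alternative listed for these counts stayed within 1.5 times, and the test of genotype gave 0 in all fits. Of the 267 rows, 235 passed in all 8 WT fits that left out 1 array and 211 without hippocampus of animals 3 and 4. Of 171 named genes that passed, 0 changed sign and 120 passed under all 19 alternatives. The loss was widest, at 50 genes, without hippocampus of animals 3 and 4, which leaves 2 arrays in that group. With the intensity trend and a robust prior 6 did not pass, among them Lamp5, Gabra5 and Scn3b (limma, adjusted p = 0.0961, 0.0644 and 0.0639). Detection above background was not available, so what depth of signal limits was not tested.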

Other observations

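A block of near-identical gene copies on chromosome 4 makes up part of the lower side. All 18 rows of Ccl21a, Ccl21b, Ccl21c, Ccl27a, Fam205a1 to Fam205a4, Gm10591, Gm13304, Gm20878, Gm21953, Gm3893, 4933409K07Rik and LOC100861978, chosen after their values were seen, were called lower in the hippocampus, by -1.82 to -1.05, and they are 14.9% of the 121 lower rows. Probes of such copies can share sequence, so these rows are not independent and which copy is measured is uncertain. Ccl21c and 1 row of Ccl21b had the same values on all 8 arrays, as had the other row of Ccl21b and 1 row of Gm10591. The 18 rows thus include repeats of the same measurement. Without these 18 rows 249 rows were called, 103 of them lower. In the KO 12 of the 18 passed and 7 were called. Fam205a1 did not pass in WT without any 1 of cortex of animals 1 or 2 or hippocampus of animals 3 or 4, and Gm3893 not without cortex of animal 1 or 2 or hippocampus of animal 4.

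On chromosome 1, 3 neighbours differed together: Il1r1 (1.46), the receptor for interleukin-1, and the sodium/proton exchangers Slc9a4 (3.06) and Slc9a2 (1.46) were called higher. Il1rl2 (-0.17), Il18r1 (-0.14) and Il18rap (-0.13), which lie between Il1r1 and Slc9a4 in the RefSeq order of genes (GRCm38.p6), did not pass. Il1r1 read 8.60, 8.58, 8.53 and 8.93 in the cortex and 10.15, 9.86, 10.39 and 10.08 in the hippocampus, without overlap. These genes were picked out after their values were seen, and no test of neighbourhood was run.

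Called genes outside the lists included the transient receptor potential channels Trpc5 (1.39) and Trpc4 (1.22), with Trpc6 (1.04) from the dentate list, Glp1r (1.17), the receptor for glucagon-like peptide 1, and Mas1 (1.42), a receptor for angiotensin fragments. On the lower side stood Lrrk2 (-1.28), a kinase, Cdkn1a (-1.33), an inhibitor of the cell cycle, Nptx2 (-1.01), a pentraxin that gathers AMPA receptors, and Pcsk1 (-1.26), a protease that matures peptide hormones. These too were named after their values were seen. Glp1r did not pass without any 1 of cortex of animals 1 or 2 or hippocampus of animal 3.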
